A study of Mus musculus with 229 samples.

Results

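Collagens and laminins are the proteins from which cells build basement membranes and the fibrous matrix between cells. The genes described here were every row whose symbol matched the pattern Col, number, a, number or the pattern Lama, Lamb or Lamc with a number. The pattern found 56 rows, of which 44 were collagen chains and 11 were laminin chains. The remaining one, Col4a3bp, encodes the ceramide transfer protein, which is no collagen and was named for binding the product of Col4a3; it is counted under the rule. All 56 rows were present in the table of the dpi 35 tumour (27998 gene rows), in those of the PDGFRa-GFP and hGFAP-GFP cortex libraries (22105 and 25995) and in both tables of C1 cells, single cells caught in a microfluidic chip (46523 and 24279). The table of the dpi 25 tumour (20465 rows) had 54 of them and lacked Col28a1 and Col6a4.

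The study sequenced single cells of mouse tumours labelled GBM and of the postnatal mouse cerebral cortex, and profiled open chromatin in cortex cells. The tumours gave 1 10x library at dpi 35 and 1 Drop-seq library at dpi 25. The labels do not expand dpi or say how the tumours were made, give no genotype beyond GBM (dpi 35) and none at dpi 25, and do not tell tumour cells apart from host cells. For both tumours they describe a digestion with TrypLE and collagenase I and a lysis of red cells. The dpi 25 entry also repeats the sorting protocol of the cortex cells. The cortex gave 1 Drop-seq library of PDGFRa-GFP mice at P1 to P3 and 1 of hGFAP-GFP mice at P5 to P6, digested with TrypLE and sorted for GFP and against the dead-cell dye 7-AAD. Their genotype entries read PDGFRa normal and hGFAP normal. In these reporter strains GFP follows the promoter of Pdgfra, a receptor of oligodendrocyte precursor cells (OPCs), or the human GFAP promoter, which is used to mark astrocytes and progenitor cells of the brain. C1 cells came from PDGFRa-GFP cortex at P6 (53 cells) and P3 (60 cells) and from hGFAP-GFP cortex at P4 to P6 (61 cells) and P3 (49 cells), after the same sort. The open chromatin samples, PDGFRa-GFP cells of E14.5 and of P5 by their titles, share 1 pooled list. No label names an animal, so the number of mice in a group is not known.

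Type IV collagen and laminin form the sheets of a basement membrane: each laminin is a trimer of an alpha, a beta and a gamma chain, and Col4a1 and Col4a2 supply the chains of the most common type IV trimer. In the brain these sheets surround the blood vessels, where endothelial cells, pericytes and perivascular fibroblasts make most of them. Fibrillar collagens of types I and III are classical products of fibroblasts. Types V and XI are minor fibrillar chains that join and regulate larger fibrils. Type IX and other fibril-associated chains decorate fibril surfaces, and type XVIII (Col18a1) is a basement membrane proteoglycan whose end fragment is endostatin.

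The sequences before 4 genes are shown as examples from opposite ends of the tumour comparisons described here. Col11a1 and Col16a1 were higher in tumour clusters with markers of oligodendrocyte precursor cells and had open chromatin at their starts in PDGFRa-GFP cells. Col1a2 and Col3a1 were higher in mural or fibroblast-like tumour cells and had none there. The open chromatin of these 4 does not stand for their classes: Col9a1, Col9a2, Col20a1 and Col24a1 were also higher in OPC-marker clusters and had none, and Col4a1, Col4a2 and Col5a1 were lower in them and had some. Of the 56 symbols, 40 had an entry in the RefSeq promoter table of GRCm38.p6. Each run ends at the base before the annotated gene and is written 5′ to 3′ on the plus strand. The positions are chr3:114030290-114030478 for Col11a1, chr4:130047590-130047816 for Col16a1, chr6:4505368-4505617 for Col1a2 and chr1:45311288-45311537 for Col3a1. Capitals mark GGGCGG (the GC box, searched on both strands, so also as CCGCCC) and CCAAT (also as ATTGG).
Col11a1: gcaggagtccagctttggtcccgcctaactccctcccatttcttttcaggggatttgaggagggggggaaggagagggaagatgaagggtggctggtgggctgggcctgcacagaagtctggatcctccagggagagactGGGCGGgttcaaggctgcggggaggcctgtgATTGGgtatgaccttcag
Col16a1: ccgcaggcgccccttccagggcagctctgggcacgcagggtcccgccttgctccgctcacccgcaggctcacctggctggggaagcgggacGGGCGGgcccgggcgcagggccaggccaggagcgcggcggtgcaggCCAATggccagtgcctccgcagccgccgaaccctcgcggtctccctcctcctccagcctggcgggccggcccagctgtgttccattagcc
Col1a2: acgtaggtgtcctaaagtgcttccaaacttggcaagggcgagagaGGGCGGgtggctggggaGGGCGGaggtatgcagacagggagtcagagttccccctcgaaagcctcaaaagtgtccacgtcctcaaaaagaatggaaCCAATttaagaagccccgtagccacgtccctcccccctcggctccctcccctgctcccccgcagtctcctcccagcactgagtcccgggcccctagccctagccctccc
Col3a1: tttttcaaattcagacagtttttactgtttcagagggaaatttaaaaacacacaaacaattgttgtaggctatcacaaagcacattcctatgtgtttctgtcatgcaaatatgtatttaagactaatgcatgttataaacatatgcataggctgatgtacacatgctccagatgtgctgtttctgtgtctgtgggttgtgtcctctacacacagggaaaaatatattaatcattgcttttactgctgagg
The Col11a1, Col16a1 and Col1a2 runs were rich in G and C (60.3%, 75.8% and 62%) and held both motifs, with 2 GC boxes before Col1a2. The Col3a1 run had 35.2% G and C and neither motif. The windows of the promoter table span 300 bases (250 before and 50 after the start), and the motifs were searched in the 250 before it. There GGGCGG was present in 23 of the 40 collagen and laminin windows (57.5%) and in 32.9% of all 27025 windows. CCAAT was present in 13 of them (32.5%) and in 34.5% of all windows. No match of one motif overlapped a match of the other in the runs shown. These matches describe letters and not bound sites. The starts of Col4a1 (minus strand, base 11312826 of chromosome 8) and Col4a2 (plus strand, base 11312805) lie close together on opposite strands, with the minus-strand start at the higher coordinate, so the first bases of the genes overlap.

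The dpi 35 library held 6054 cells with 51194749 UMIs (median 6582 per cell), the dpi 25 library 4955 cells with 11544233 (median 2063), the PDGFRa-GFP library 3184 cells with 8166699 (median 2014) and the hGFAP-GFP library 815 cells with 4196024 (median 4167). The labels state 6796 cells for dpi 25 and 2000 for hGFAP-GFP, more than the deposited barcodes. Every droplet group was 1 library, so there is no replicate error and no test was made. Levels are CPM, a gene's UMIs scaled by all UMIs of the library or class, ratios carry exact conditional 95% intervals and shares carry Clopper-Pearson 95% intervals, and both cover counting error only. A gene was compared where its UMIs summed to at least 20 over both sides, and a ratio past 2 is the fold limit used throughout. Clusters were named from marker genes that include no collagen or laminin, and collagen and laminin genes were not used to cluster. A vascular-like group was found in each tumour, with an endothelial-like cluster (231 cells at dpi 35, 84 at dpi 25) and a cluster of mural or fibroblast-like cells (42 cells in each). The endothelial-like clusters held 14 and 10 endothelial markers among their 50 leading genes. Neither cortex library had a vascular-like cluster of at least 50 cells, so the planned comparison of glial-like with vascular-like cells of the cortex could not be made. At dpi 25 no cluster had enough OPC markers to be named OPC-like. OPC-like clusters, together with unnamed or cycling clusters in which OPC markers summed higher than those of every other listed type, are called OPC-marker clusters, a grouping set after the clusters had been seen. They held 2216 cells in 6 clusters at dpi 35, of which 1342 were OPC-like, and 4408 cells in 5 clusters at dpi 25.

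Together the genes made up 644 CPM of the dpi 35 library, 885 CPM of the dpi 25 library, 358 CPM of the PDGFRa-GFP library and 321 CPM of the hGFAP-GFP library. Within the tumours the sum was 701 CPM in OPC-marker clusters and 3501 CPM in vascular-like clusters at dpi 35, and 702 CPM and 7410.2 CPM at dpi 25. The vascular-like clusters were 4.51% of the dpi 35 cells and 8.91% of its UMIs but held 48.4% of its collagen and laminin UMIs. At dpi 25 they were 2.54% of the cells and 3.25% of the UMIs and held 27.2% of the collagen and laminin UMIs. The platforms differ between the tumours, so their levels are set side by side with no ratio.

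**Figure D1:**
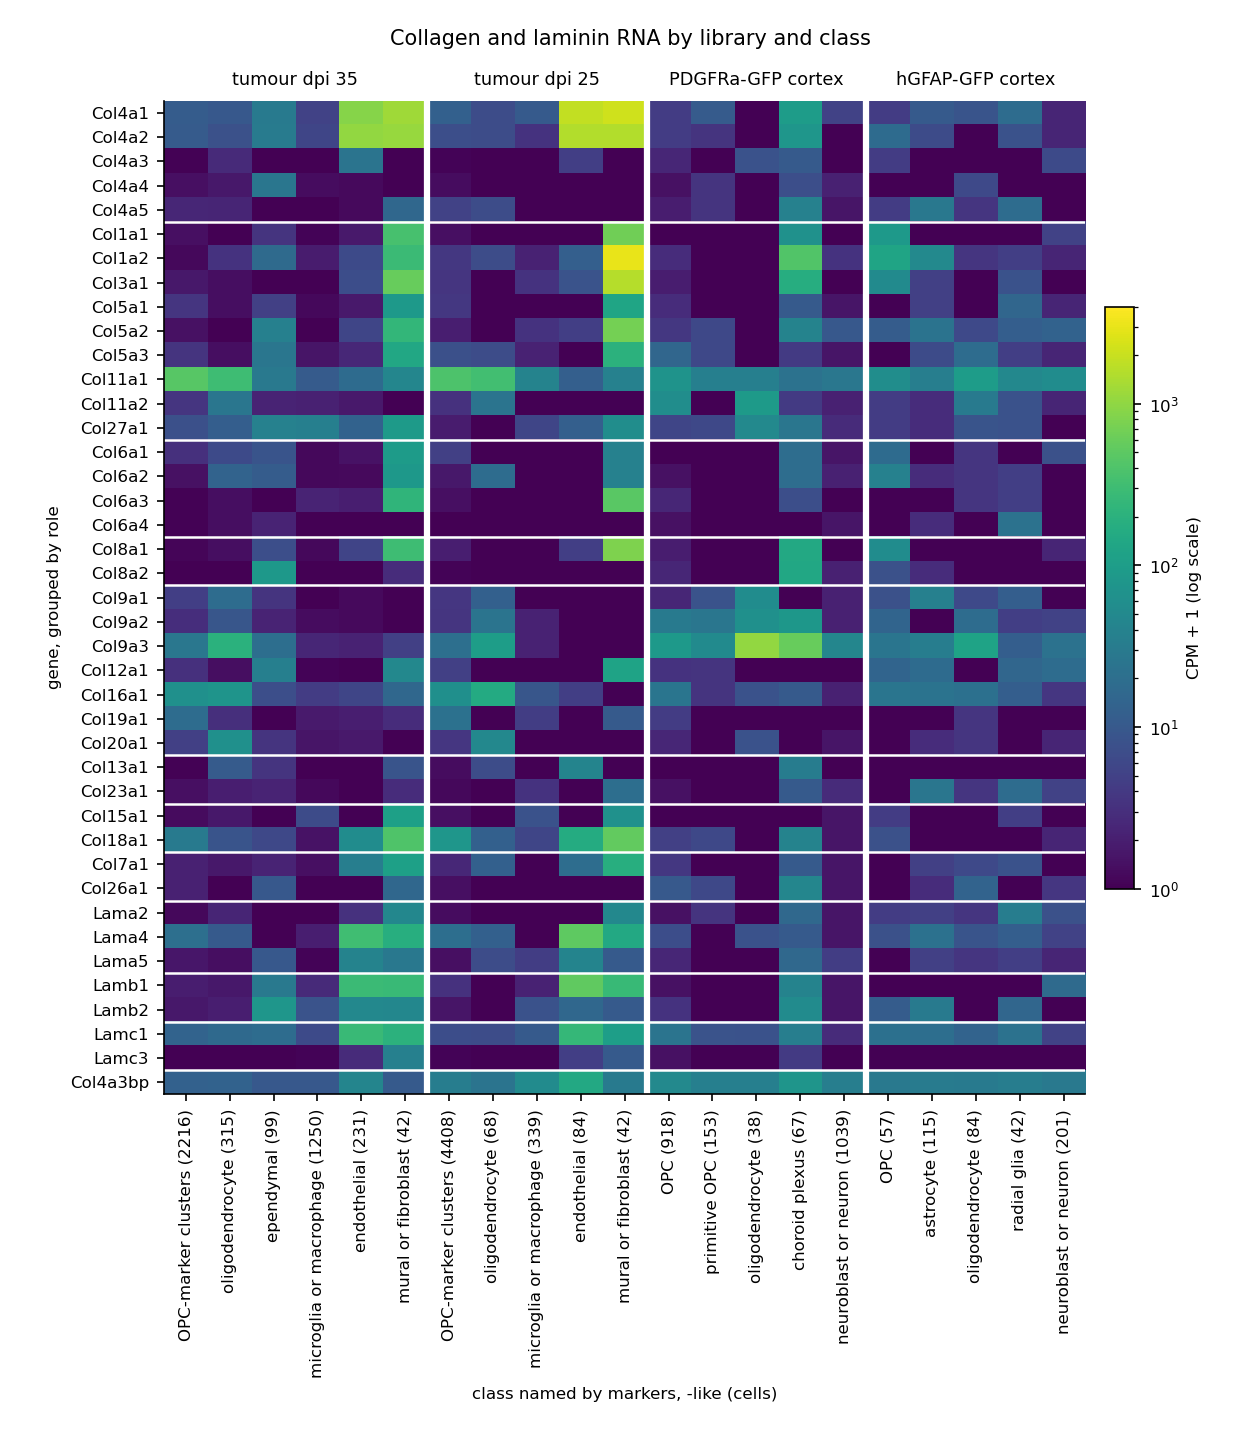
Levels of the genes that reached 20 CPM in at least one class shown, as CPM + 1 on a log colour scale, with genes in rows grouped by role and marker-named classes of each library in columns (number of cells in brackets). The bright fields of Col4a1, Col4a2 and Lamb1 stand in the endothelial-like and mural or fibroblast-like columns of both tumours, and the Col11a1 row is bright in the OPC-marker columns.

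Set against the vascular-like cells of the same tumour, OPC-marker clusters had less RNA of most basement membrane, type I, III, V and VI chains in both tumours. They had more of the fibrillar chain Col11a1 and of the fibril-associated chains Col16a1, Col19a1 and Col9a3. At dpi 35, 27 of 39 compared genes were at least 2-fold lower, against 18.7% of all 13270 genes compared, and 10 were at least 2-fold higher, against 25.7% of all genes. At dpi 25, 18 of 27 were lower, against 16.2% of 12402 genes, and 4 were higher, against 20.7%. The share of lower genes was well above that over all genes in each tumour, and the share of higher genes was at or below it. The median log2 ratio of the compared genes was -3.23 at dpi 35 and -3.20 at dpi 25, beside 0.26 and 0.11 over all genes compared. The genes past the fold limit at dpi 25 were past it the same way at dpi 35, with 18 lower in both (the whole dpi 25 list and 66.7% of the dpi 35 list) and 4 higher in both (the whole dpi 25 list and 40% of the dpi 35 list). This overlap was not counted over all genes, so it has no background to be read against. Scaling by the median ratio of all genes moved every log2 ratio by 0.24 at dpi 35 and by 0.18 at dpi 25 and left each direction named below unchanged.

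**Figure D2:**
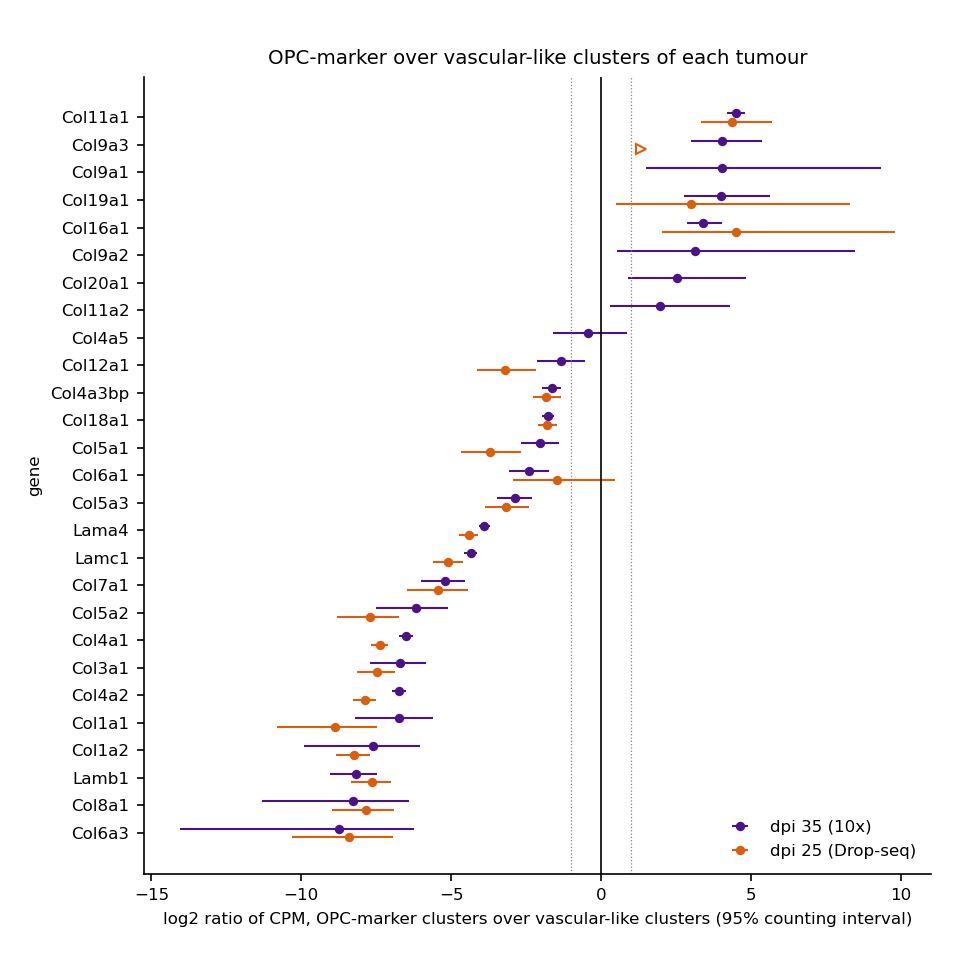
Log2 ratio of CPM in OPC-marker clusters over vascular-like clusters for each gene compared in both tumours, with 95% counting intervals, in purple for dpi 35 and orange for dpi 25. Dotted lines mark a 2-fold ratio, a triangle is a bound from a count of 0 set to a floor of 3 UMIs, and genes with 0 vascular-like UMIs whose bound did not leave 0 have no orange point; Col11a1 stands at the top and Col6a3 at the bottom.

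The chains of the common type IV trimer, Col4a1 and Col4a2, lay mostly in vascular-like cells. Col4a1 had 10.1 CPM in OPC-marker clusters and 913 CPM in vascular-like clusters at dpi 35, 90.8-fold lower (interval 77.4 to 107). At dpi 25 it had 11.8 and 1955 CPM, 166-fold lower (interval 137 to 203). Col4a2 had 9.87 CPM in OPC-marker clusters and 1060.1 CPM in vascular-like clusters at dpi 35, 107-fold lower (interval 91.5 to 127), and 6.44 and 1526 CPM at dpi 25, 237-fold lower (interval 183 to 311). Vascular-like cells held 93% (interval 92.2 to 93.8) of all Col4a1 UMIs at dpi 35 and 84.7% (interval 82.2 to 87.1) at dpi 25, and 93.6% and 89.4% of all Col4a2 UMIs. The pair was at like levels in the vascular classes: Col4a1 had 1229.8 CPM in mural or fibroblast-like cells and 872 CPM in endothelial-like cells at dpi 35 (a ratio of 1.41, interval 1.3 to 1.53), and Col4a2 1116 and 1053 CPM (a ratio of 1.06, interval 0.972 to 1.16). At dpi 25 the same ratios were 1.19 for Col4a1 and 0.999 for Col4a2. With each cell thinned to 1000 UMIs, a Col4a1 UMI was present in 0.993% (22 of 2216 cells, interval 0.623 to 1.5) of OPC-marker cells, 57.1% (24 of 42 cells, interval 41 to 72.3) of mural or fibroblast-like cells and 50.2% (116 of 231 cells, interval 43.6 to 56.8) of endothelial-like cells at dpi 35. In microglia or macrophage-like cells, which should lack the gene, it was 0.32% (4 of 1250 cells, interval 0.0873 to 0.817). Before thinning the shares in the same order were 6.63%, 95.2%, 90.9% and 3.28%, at median depths of 5968.5, 10653.5, 12697 and 6819 UMIs. At dpi 25 the thinned shares were 1.27% (56 of 4408 cells, interval 0.961 to 1.65) of OPC-marker, 83.3% of mural or fibroblast-like, 69% of endothelial-like and 0.885% (3 of 339 cells, interval 0.183 to 2.56) of microglia or macrophage-like cells. The intervals of the thinned OPC-marker and myeloid shares overlapped in both tumours. Unthinned, they did not overlap at dpi 35 (5.63 to 7.75% of OPC-marker cells and 2.36 to 4.42% of myeloid cells), where Col4a1 was at 10.1 CPM in OPC-marker and 4.13 CPM in myeloid cells, and they did at dpi 25 (11.8 and 9.44 CPM). All of these shares lay far below the vascular ones.

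The remaining type IV chains were lower than Col4a1 and Col4a2 over the tumour libraries. Col4a3, a chain of the kidney and lung membrane, had 0 CPM in mural or fibroblast-like and 23.6 CPM in endothelial-like cells at dpi 35. With no UMI in the mural or fibroblast-like cluster it was at least 4.16-fold lower there, and OPC-marker clusters were 325-fold (interval 57 to 12973) below the vascular-like ones. Col4a5, which pairs with Col4a3 and Col4a4 or with Col4a6, had 0.82 CPM at dpi 35, 3.72 CPM at dpi 25, 3.43 CPM in the PDGFRa-GFP library and 10.5 CPM in the hGFAP-GFP library, in the last above Col4a1 (7.39 CPM) and Col4a2 (3.1 CPM).

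The laminin chains Lama4, Lamb1 and Lamc1, which together make the laminin of vascular endothelium, followed the type IV chains in part. Lamb1, like them, lay mostly in vascular-like cells, with 0.961 CPM in OPC-marker clusters and 279.8 CPM in vascular-like clusters at dpi 35 (291-fold lower, interval 176 to 522) and 2.28 and 453 CPM at dpi 25 (199-fold lower, interval 128 to 323). Lama4 and Lamc1 were also lower in OPC-marker clusters, but by less. Lama4 had 19.9 CPM in OPC-marker clusters and 296 CPM in vascular-like ones at dpi 35, 14.9-fold lower (interval 13.1 to 16.9), and 18.9 and 403 CPM at dpi 25, 21.3-fold lower (interval 17.1 to 26.5). Lamc1 had 13.2 and 269 CPM at dpi 35, 20.4-fold lower (interval 17.6 to 23.8), and 6.14 and 211 CPM at dpi 25, 34.3-fold lower (interval 24.3 to 48.7). Vascular-like cells held 94.3% of the Lamb1 UMIs at dpi 35 and 87.6% at dpi 25, 77.4% and 43.6% of those of Lama4, and 73.5% and 52.3% of those of Lamc1. Lama4 had the smallest vascular share of the 3 at dpi 25, and Lamc1 at dpi 35. Lama5 and Lamb2 had 88.5% and 47.3% of their UMIs in vascular-like cells at dpi 35 and 52.2% and 25% of their 23 and 20 UMIs at dpi 25. Lama4 levels in the single OPC-marker clusters spanned 11.2 to 27.5 CPM at dpi 35 and 15.9 to 32.9 CPM at dpi 25.

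Within the vasculature the fibrillar collagens separated the mural or fibroblast-like from the endothelial-like cells. Of 29 genes compared at dpi 35, 19 were at least 2-fold higher in the mural or fibroblast-like cluster, against 12.4% of all 10171 genes, and 2 were lower, against 14.4%. At dpi 25, 9 of 15 were higher, against 9.8% of 3440 genes, and 4 were lower, against 18.6%. The median log2 ratio of the compared genes was 2.88 at dpi 35 and 3.26 at dpi 25, beside 0.04 and -0.02 over all genes. All 9 genes higher at dpi 25 were also higher at dpi 35 (47.4% of the dpi 35 list), an overlap that was not counted over all genes either. Col1a2 had 281 CPM in mural or fibroblast-like and 5.46 CPM in endothelial-like cells at dpi 35, 51.6-fold higher (interval 32.8 to 84.8), and 3049 and 11.2 CPM at dpi 25, 273-fold higher (interval 92.6 to 1330.5). Col3a1 had 580.0 and 6.2 CPM at dpi 35, 93.5-fold higher (interval 62.1 to 147), and 1599.6 and 7.45 CPM at dpi 25, 215-fold higher (interval 58.6 to 1788). Both are main chains of the fibres of connective tissue, and in both tumours they stood far apart between the vascular classes. Col1a1, the partner chain of Col1a2, had 351 and 0.744 CPM at dpi 35, 472-fold higher (interval 159 to 2310.0). At dpi 25 it had 659 CPM in the mural or fibroblast-like cells and no UMI in the endothelial-like cells, at least 59-fold higher. The chains of type VI, a beaded filament at the border of cells and matrix, were also high in the mural or fibroblast-like cluster of dpi 35: Col6a1 was 190.4-fold (interval 50 to 1615), Col6a2 327-fold (interval 55.7 to 13229) and Col6a3 230.3-fold higher there. Of the 43 Col6a2 UMIs behind that ratio, 14 came from 1 cell, and without the top cell of each side the bound was 76.5-fold. Col8a1, a short chain of vessel walls, was 68.5-fold higher (interval 42 to 119) at dpi 35 and 215-fold higher (interval 37.5 to 8584) at dpi 25. Col15a1, a multiplexin of basement membrane zones, had 111 CPM in mural or fibroblast-like cells of dpi 35 and no UMI in the endothelial-like cells, at least 149.8-fold higher.

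The laminin chains were divided in this comparison. Lama2, the alpha chain of muscle and nerve laminin, and Lamc3, a gamma chain, were higher in the mural or fibroblast-like cells of dpi 35: Lama2 had 45.3 CPM there and 2.23 CPM in endothelial-like cells, 20.3-fold higher (interval 9.11 to 49.6), and Lamc3 had 35.9 and 1.74 CPM, 20.7-fold higher (interval 8.32 to 58.2). The other 6 chains compared did not pass the fold limit. Lamb1 had 278 CPM in mural or fibroblast-like and 280.1 CPM in endothelial-like cells (a ratio of 0.991, interval 0.829 to 1.18), Lamc1 206 and 278 CPM and Lama4 179 and 311 CPM (a ratio of 0.577, interval 0.464 to 0.712), and the ratios of Lama5, Lamb2 and Lama1 were 0.654, 0.952 and 1.69. At dpi 25 the 3 chains compared were lower in the mural or fibroblast-like cells. Lama4 was 3.34-fold lower (interval 1.98 to 6.01), Lamc1 2.45-fold and Lamb1 2.01-fold lower. The ceramide transporter gene Col4a3bp was lower there in both tumours, by 4.47-fold at dpi 35 and 5.28-fold (interval 1.68 to 26.7) at dpi 25. Each mural or fibroblast-like cluster had 42 cells, and pericyte markers such as Pdgfrb and Higd1b and fibroblast or smooth muscle markers such as Dcn and Acta2 led it together at dpi 35. Col1a1, Col1a2, Col3a1 and Col4a1 had a UMI in 17, 19, 31 and 40 of these cells at dpi 35. At dpi 25 they had one in 16, 36, 33 and 41. Mural cells and fibroblasts were not told apart within the clusters.

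Col11a1, a chain of type XI collagen best known from cartilage and the vitreous, had more UMIs than any other gene of the set in the OPC-marker clusters of both tumours. It had 456 CPM in OPC-marker and 20.2 CPM in vascular-like clusters at dpi 35, 22.6-fold higher (interval 18.4 to 28.1), and 389.5 and 18.7 CPM at dpi 25, 20.9-fold higher (interval 10.1 to 51.9). Thinned to 1000 UMIs, a Col11a1 UMI was found in 36.2% (802 of 2216 cells, interval 34.2 to 38.2) of the OPC-marker cells of dpi 35, in 2.16% of endothelial-like cells and in 1.36% of microglia or macrophage-like cells. Unthinned, these shares were 83.3%, 15.6% and 5.92%. At dpi 25 the thinned shares were 30.1% (1329 of 4408 cells, interval 28.8 to 31.5) of OPC-marker cells, 3.57% of endothelial-like and 3.83% of microglia or macrophage-like cells, and unthinned 51.2%, 3.57% and 7.37% at median depths of 2042, 2597.5 and 2157 UMIs. The OPC-marker shares stood far above the myeloid shares in both tumours. Every OPC-marker cluster carried the gene, at 288 to 724 CPM over the 6 clusters of dpi 35 and at 299.8 to 491 CPM over the 5 of dpi 25. The highest cluster at dpi 35 was an OPC-like one led by Xist, Meg3, Gria2 and C1ql1, and the lowest was led by the heat shock genes Hspa1a and Hspa1b. At dpi 25 the highest was led by Ero1l, Bnip3 and Vegfa, and the lowest was the cycling cluster. Of the oligodendrocyte-like clusters of dpi 35, the one led by Rnd2 and Enpp6 had 445 CPM of Col11a1, and the one led by Apod and Klk6, with the myelin genes Mog and Mal, had 21 CPM. Its partner Col11a2 stayed low, at 2.56 CPM in OPC-marker and 0.658 CPM in vascular-like clusters of dpi 35 (3.9-fold higher, interval 1.24 to 19.7).

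**Figure D3:**
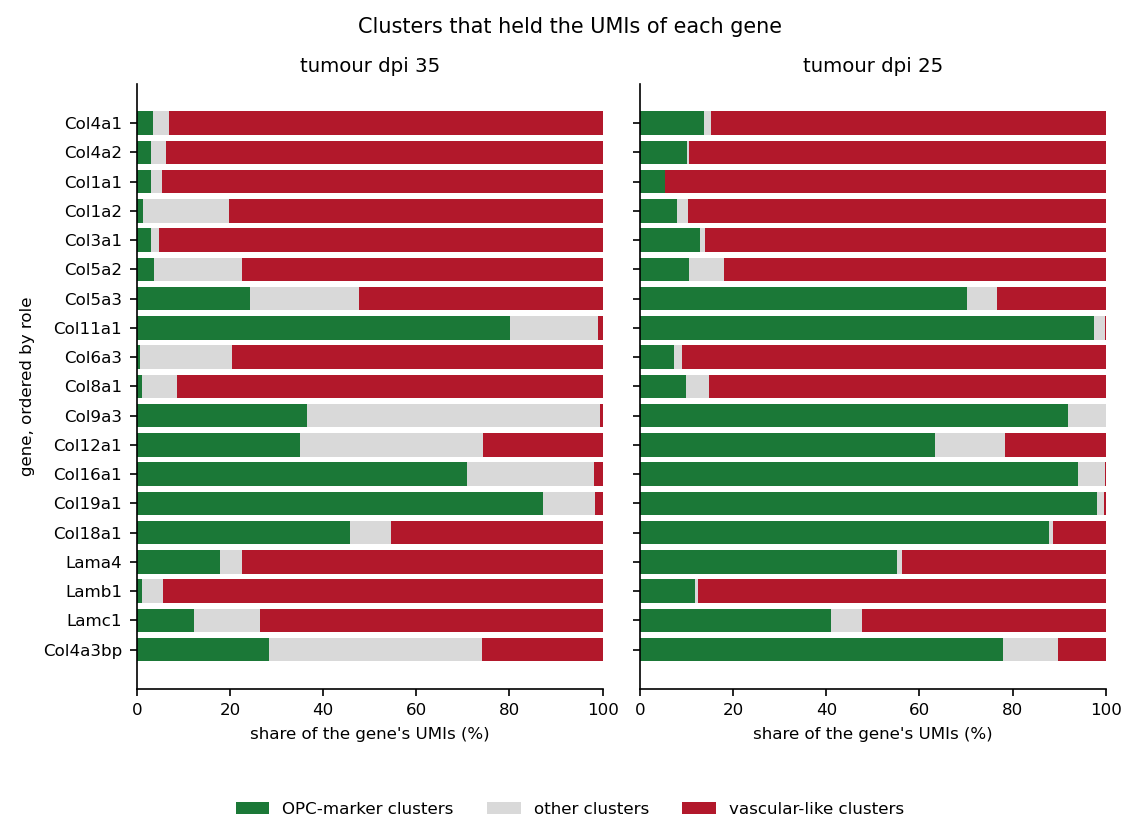
Share of each gene's UMIs (percent, horizontal axis) held by OPC-marker clusters (green), other clusters (grey) and vascular-like clusters (red) in each tumour, for genes with at least 50 UMIs in both. Col4a1, Col4a2 and Lamb1 are mostly red, Col11a1, Col16a1 and Col19a1 are mostly green, and Lama4, Lamc1 and Col18a1 are divided between the sources.

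Col16a1 and Col19a1, fibril-associated chains, went with Col11a1. Col16a1 had 63.3 CPM in OPC-marker and 5.92 CPM in vascular-like clusters at dpi 35, 10.7-fold higher (interval 7.3 to 16.3). At dpi 25 it had 61.2 and 2.67 CPM, with 1 vascular-like UMI and a ratio of 22.9 (interval 4.1 to 908). It spanned 26.6 to 83.8 CPM over the OPC-marker clusters of dpi 35 and 53.6 to 92.3 CPM over those of dpi 25, so every one of them was above the vascular-like level. Col19a1 had 17.8 and 1.1 CPM at dpi 35, 16.2-fold higher (interval 6.85 to 50.3), and 21.4 and 2.67 CPM at dpi 25, again with 1 vascular-like UMI, a ratio of 8.02 (interval 1.42 to 318). The chains of type IX, which bind to the surface of type II and XI fibrils in cartilage, were present at lower levels. Col9a3 had 25.4 and 1.54 CPM at dpi 35, 16.6-fold higher (interval 7.97 to 41.5), and at dpi 25 it had 20 CPM in OPC-marker clusters and no UMI in vascular-like clusters, at least 2.5-fold higher. Col9a1 was 16.4-fold (interval 2.82 to 658), Col9a2 8.77-fold (interval 1.46 to 358), Col20a1, another fibril-associated chain, 5.75-fold (interval 1.87 to 28.7) and Col2a1, the main cartilage fibril chain, 6.72-fold (interval 1.09 to 277) higher at dpi 35. The Col2a1 call rested on 23 UMIs in OPC-marker clusters and 1 in vascular-like ones, and without the top cell of each side no vascular-like UMI was left and the bound was 1.84. Col12a1, a fibril-associated chain, was 2.52-fold lower, also a call that was lost without the top cells (1.83-fold). The other gene past the limit, Col24a1, had no vascular-like UMI and was at least 3.31-fold higher. Col5a1, Col5a2 and Col5a3, the chains of the related type V, were lower in the OPC-marker clusters of both tumours, by 4.11-, 72.3- and 7.38-fold at dpi 35 and by 13-, 207- and 8.98-fold at dpi 25. Type VI and type I chains were at the low end: Col6a3 was 428-fold (interval 75.4 to 17028) and Col1a2 195-fold (interval 65.6 to 955) lower at dpi 35, and 337-fold and 304-fold lower at dpi 25. Of the 29 Col1a2 UMIs in OPC-marker clusters of dpi 25, 17 came from 1 cell.

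Col18a1 was divided between both sources. It had 28.3 CPM in OPC-marker and 95.8 CPM in vascular-like clusters at dpi 35, 3.38-fold lower (interval 2.96 to 3.87), and 78 and 269 CPM at dpi 25, 3.45-fold lower (interval 2.78 to 4.25). Vascular-like cells held 45.3% of its UMIs at dpi 35 and 11.3% at dpi 25. Over single OPC-marker clusters it spanned 17.6 to 50 CPM at dpi 35, with the highest value in a cluster led by Vegfa and Ero1l, and 68.5 to 97.4 CPM at dpi 25. Within the vasculature it was 7.37-fold higher (interval 6.08 to 8.94) in mural or fibroblast-like than in endothelial-like cells at dpi 35 and 3.27-fold higher (interval 2.17 to 4.97) at dpi 25.

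Counted over named glial-like clusters alone, without the cycling and unnamed ones, the picture was of the same kind. At dpi 35 (1673 glial-like cells), 27 of 39 compared genes were lower than in vascular-like cells, against 17.9% of 13102 genes, and 11 were higher, against 25.0%. At dpi 25 82 cells were in named glial-like clusters, of which 68 were oligodendrocyte-like. Of 18 compared genes, 15 were lower, against 22.2% of 5054 genes, and 2 were higher, against 16.2%. The median log2 ratio of the compared genes was -3.02 at dpi 35 and -3.87 at dpi 25, beside 0.22 and -0.11 over all genes. The 2 genes higher at dpi 25 were Col11a1, with 253 CPM in glial-like and 18.7 CPM in vascular-like cells (13.5-fold higher, interval 6.16 to 35.2), and Col16a1, with 138 and 2.67 CPM on 1 vascular-like UMI (a ratio of 51.5, interval 8.59 to 2101). At dpi 35 both were higher too, Col11a1 by 24-fold and Col16a1 by 12-fold. Col9a3 was 47.9-fold higher and Col20a1, with 3 vascular-like UMIs, 30-fold (interval 10.1 to 147) higher. Of the oligodendrocyte-like clusters of dpi 35, the Enpp6 cluster was high for both, with 282 CPM of Col9a3 and 92 CPM of Col20a1. The Apod cluster had 32.5 and 6.29 CPM, within the ranges of the OPC-marker clusters (9.84 to 46 and 1.98 to 8.85 CPM).

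The Drop-seq tumour was compared with each cortex library. These comparisons share the tumour library, and tissue, age and digestion differ together. The cortex cells were sorted from reporter strains, while the labels give no genotype for this tumour and leave its sorting unclear. The mix of cells differed too: OPC-marker clusters were 89.0% of the dpi 25 cells, 40.3% of the PDGFRa-GFP cells and 6.99% of the hGFAP-GFP cells. The parts of these differences in the ratios cannot be told apart. Against the PDGFRa-GFP cortex, 14 of 41 compared genes were at least 2-fold higher in the dpi 25 tumour, with 16.2% of all 14162 genes compared past the same limit, and 11 were lower, with 16.6% of all genes. Against the hGFAP-GFP cortex, 15 of 37 were higher, with 17.2% of 14189 genes past the limit, and 7 were lower, with 20.5%. The median log2 ratio of the compared genes was 0.42 and 0.25, beside -0.01 and 0.01 over all genes. Endothelial and mural markers were higher in the tumour, and fibroblast markers were not: the summed level of the 16 endothelial markers was 289 CPM in the dpi 25 tumour, 37.7 CPM in the PDGFRa-GFP library (15 of them present) and 41.2 CPM in the hGFAP-GFP library, that of 15 mural markers 79.0, 31.2 and 50.5 CPM, and that of 13 fibroblast markers 56.5 (11 of them present), 74.8 and 97.2 CPM. In such sums, fewer cells of a type and less RNA per cell cannot be told apart, so each ratio was also taken with the tumour's vascular-like clusters left out. That step changes the tumour side alone. Ratios were therefore also taken with cells bearing 3 or more endothelial, mural or fibroblast markers left out of both libraries, a step chosen after the data had been seen. It removed 141 of 4955 tumour cells (the vascular-like clusters among them), 33 of the 3184 from PDGFRa-GFP and 40 of the 815 from hGFAP-GFP cortex, with 3.64%, 1.95% and 9.79% of their UMIs. They were 2.85%, 1.04% and 4.91% of the cells, so deeper than the average cell, and a deeper cell more readily shows 3 markers. In hGFAP-GFP cortex 6 of the 115 astrocyte-like cells had 3 or more mural or fibroblast markers. The part of depth in this step was not tested. With these cells left out, 13 of 32 compared genes were higher in the tumour than in PDGFRa-GFP cortex, against 15.4% of 13905 genes, and 12 lower, against 16.9%. Over hGFAP-GFP cortex 8 of 29 were higher, against 17% of 13842 genes, and 7 lower, against 20.7%.

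A first set of genes was higher in the tumour with all cells and after both of these steps. Col11a1 had 173 CPM at dpi 35, 349 CPM at dpi 25, 38.1 CPM in the PDGFRa-GFP library and 46.7 CPM in the hGFAP-GFP library. The dpi 25 tumour was 9.17-fold higher (interval 8.17 to 10.3) than the PDGFRa-GFP cortex and 7.48-fold higher (interval 6.48 to 8.67) than the hGFAP-GFP cortex, and without vascular-like cells 9.46-fold and 7.71-fold. Col16a1 had 27.2 CPM at dpi 35, 56.9 CPM at dpi 25, 9.43 CPM in the PDGFRa-GFP library and 9.53 CPM in the hGFAP-GFP library, and the tumour was 6.04-fold and 5.97-fold higher (6.23- and 6.16-fold without vascular-like cells). Col18a1 had 18.8 CPM at dpi 35, 77.7 CPM at dpi 25, 4.9 CPM in the PDGFRa-GFP library and 3.1 CPM in the hGFAP-GFP library; the tumour was 15.9-fold higher (interval 11.6 to 22.4) than PDGFRa-GFP and 25.1-fold higher (interval 14.6 to 47.3) than hGFAP-GFP cortex, and 14.6- and 23-fold without vascular-like cells. Every tumour value of these genes at dpi 25 lay above both cortex values. These are ratios of whole libraries, which differ in their share of OPC-marker cells. Over single OPC-marker clusters Col11a1 spanned 299.8 to 491 CPM at dpi 25 and 29.8 to 86.1 CPM in PDGFRa-GFP cortex. For Col16a1 the spans were 53.6 to 92.3 CPM and 2.49 to 41.2 CPM. Col19a1 had 6.21 CPM at dpi 35, 19.1 CPM at dpi 25, 1.35 CPM in the PDGFRa-GFP library and 0.477 CPM in the hGFAP-GFP library, 14.1-fold higher (interval 7.75 to 28.8) than PDGFRa-GFP cortex. Against hGFAP-GFP cortex, where it had 2 UMIs, its ratio was 40 (interval 10.9 to 332). Lama4 had 34 CPM at dpi 35, 30 CPM at dpi 25, 2.94 CPM in the PDGFRa-GFP library and 5.96 CPM in the hGFAP-GFP library, and the tumour was 10.2- and 5.03-fold higher, or 5.94- and 2.93-fold without vascular-like cells. With marker-bearing cells left out of both libraries, the ratios to PDGFRa-GFP and hGFAP-GFP cortex were 9.42 and 7.81 for Col11a1, 6.28 and 6.95 for Col16a1, 21.1 and 27 for Col18a1, 14.3 and 37.3 for Col19a1 and 6.65 and 2.87 for Lama4.

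For a second set the ratio was much smaller without the tumour's vascular-like cells. Col4a1 had 87.4 CPM at dpi 35, 74.9 CPM at dpi 25, 7.84 CPM in the PDGFRa-GFP library and 7.39 CPM in the hGFAP-GFP library, 9.56-fold higher (interval 7.41 to 12.5) in the tumour than in PDGFRa-GFP and 10.1-fold higher (interval 7.09 to 15) than in hGFAP-GFP cortex. With 126 vascular-like cells left out its tumour level was 11.8 CPM, a ratio of 1.51 (interval 1.11 to 2.07) to PDGFRa-GFP and a ratio of 1.6 (interval 1.08 to 2.45) to hGFAP-GFP cortex. With marker-bearing cells left out of both libraries it was higher in the tumour again, with a ratio of 2.83 (interval 1.88 to 4.38) and a ratio of 2.01 (interval 1.24 to 3.41). Col4a2 had 101 CPM at dpi 35, 55.4 CPM at dpi 25, 5.02 CPM in the PDGFRa-GFP library and 3.1 CPM in the hGFAP-GFP library, 11- and 17.9-fold higher in the tumour, and a ratio of 1.21 (interval 0.811 to 1.83) and a ratio of 1.97 (interval 1.08 to 3.88) without the vascular-like cells. Cleaned on both sides its ratios were 2.98 and 2.47. Lamb1 had 26.4 CPM at dpi 35, 16.8 CPM at dpi 25, 1.96 CPM in the PDGFRa-GFP library and 3.1 CPM in the hGFAP-GFP library, 8.58- and 5.42-fold higher, ratios of 1.1 and 0.694 without vascular-like cells, and a ratio of 2.06 (interval 0.835 to 5.76) and a ratio of 0.524 (interval 0.248 to 1.15) cleaned on both sides. So these 3 chains lost their calls when the tumour alone was cleaned, and when both libraries were, the type IV chains were past the limit against either cortex and Lamb1 against PDGFRa-GFP cortex, with an interval that reached below 1.

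The type I and III chains depended on a few cells of each library. Col1a2 had 4.16 CPM at dpi 35, 31.6 CPM at dpi 25, 21.3 CPM in the PDGFRa-GFP library and 24.1 CPM in the hGFAP-GFP library, a ratio of 1.48 (interval 1.24 to 1.79) to PDGFRa-GFP cortex. Of its PDGFRa-GFP UMIs, 133 of 174 lay in the choroid plexus-like cluster, and of its hGFAP-GFP UMIs 36 of 101 in 1 cell. With marker-bearing cells left out of both libraries it had 1.44 CPM in the tumour, 5.24 CPM in PDGFRa-GFP and 13.7 CPM in hGFAP-GFP cortex, 3.65-fold (interval 2.01 to 6.95) and 9.55-fold lower in the tumour. Col5a2 was likewise lower after that step, by 5.24- and 8.36-fold. Col1a1 had 6.41 CPM in the tumour and 3.18 and 7.86 CPM in the cortex libraries. Col3a1 had 6.82 CPM at dpi 35, 17.3 CPM at dpi 25, 8.69 CPM in the PDGFRa-GFP library and 5 CPM in the hGFAP-GFP library. After the step on both libraries neither of them reached the UMI minimum, so no ratio is given. In the hGFAP-GFP library 26 of 33 Col1a1 UMIs came from 1 cell, and without the top cell of each side the tumour with all its classes was 3.06-fold higher for Col1a1. Against PDGFRa-GFP cortex the same step gave ratios of 1.99 for Col1a1, 2.44 for Col3a1 and 2.07 for Col7a1, the anchoring fibril chain.

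**Figure D4:**
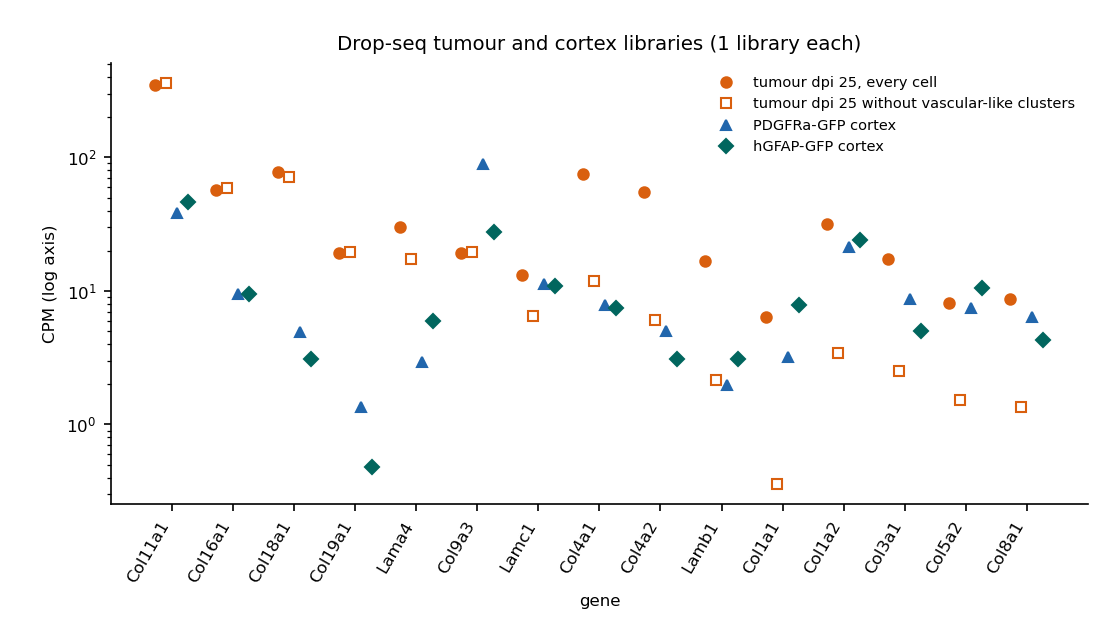
CPM (log axis) of 15 genes in the 3 Drop-seq libraries, 1 library each: the dpi 25 tumour with every cell (filled circles) and without its vascular-like clusters (open squares), the PDGFRa-GFP cortex (triangles) and the hGFAP-GFP cortex (diamonds). For Col11a1, Col16a1, Col18a1 and Col19a1 both tumour marks lie above the cortex. For Col4a1, Col4a2 and Lamb1 the open square falls close to the cortex level, staying above both cortex marks for Col4a1 and Col4a2. For Col1a1 and Col1a2 it falls below the cortex. No cells were left out of the cortex libraries here.

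Other genes were higher in the tumour by less: Col6a3 by 5.56- and 5-fold, Col20a1 by 4.24-fold and 4.36-fold (interval 1.38 to 22.1) and Col5a1 by 2.53- and 2.23-fold over the PDGFRa-GFP and hGFAP-GFP cortex. Col6a1 and Col12a1, a fibril-associated chain, were 3.25- and 3.03-fold higher than in PDGFRa-GFP cortex. Col3a1, Col5a3 and Col8a1 were 3.46-, 2.28- and 2.04-fold higher than in hGFAP-GFP cortex, and Col15a1, with 3 cortex UMIs in 3 cells, 2.06-fold (interval 0.596 to 11). Without the top cell of each side the Col15a1 cortex count fell below the floor of 3 UMIs. Set to that floor it gave a ratio of 1.69, a lower bound that leaves the call open. Several of these calls rested on the tumour's vascular-like cells. Without them Col5a1 had ratios of 1.77 and 1.56, Col5a3 of 1.8 and Col3a1 of 0.501, and Col8a1 was 3.19-fold lower than in hGFAP-GFP cortex, while Col6a3 and Col15a1 no longer reached the UMI minimum. In that cortex library 1 cell held 15 of the 21 Col3a1 UMIs, and 1 cell held 16 of the 18 Col8a1 UMIs. The Col3a1 and Col8a1 ratios rest on such a cell and were not retaken without it. Cleaned on both sides, Col5a1 had ratios of 2.61 and 1.97 and Col5a3 of 1.86, and Col3a1 and Col8a1 had too few UMIs against hGFAP-GFP cortex. Lamc1, with 32.6 CPM at dpi 35, 13.1 CPM at dpi 25, 11.3 CPM in the PDGFRa-GFP library and 11 CPM in the hGFAP-GFP library, did not pass the limit against either (a ratio of 1.16 (interval 0.89 to 1.52) to PDGFRa-GFP cortex). Col27a1, a fibrillar chain of cartilage, had 16.1 CPM at dpi 35, 1.91 CPM at dpi 25, 4.04 CPM in the PDGFRa-GFP library and 1.91 CPM in the hGFAP-GFP library. Col4a3bp had 13.2 CPM at dpi 35, 36.5 CPM at dpi 25, 38.1 CPM in the PDGFRa-GFP library and 28.8 CPM in the hGFAP-GFP library, with no ratio past the limit between Drop-seq libraries.

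Genes lower in the tumour included fibril-associated, transmembrane and short chains as well as the laminin chains Lama2 and Lamb2. Col9a3 had 21.2 CPM at dpi 35, 19.1 CPM at dpi 25, 89.8 CPM in the PDGFRa-GFP library and 27.6 CPM in the hGFAP-GFP library; the dpi 25 tumour was 4.71-fold lower (interval 4.05 to 5.5) than the PDGFRa-GFP cortex and did not pass the limit against the hGFAP-GFP cortex (a ratio of 0.689, interval 0.548 to 0.871). Col9a2 was 5.84-fold lower than in PDGFRa-GFP cortex, and Col9a1 2.4-fold lower than in hGFAP-GFP cortex, or 1.96-fold when both libraries were cleaned. Col8a2 had 0.26 CPM in the tumour and 6.37 CPM in PDGFRa-GFP cortex, 24.5-fold lower (interval 7.93 to 123), on 3 tumour UMIs and with 46 of the 52 cortex UMIs in the 67 choroid plexus-like cells. Col26a1, a secreted chain first found in testis and ovary, was 16.3-fold lower (interval 5.94 to 62.2) than in PDGFRa-GFP cortex and 12.4-fold lower than in hGFAP-GFP cortex. Col11a2 was 7.43-fold lower (interval 4.9 to 11.7) than in PDGFRa-GFP cortex, but 105 of the 142 cortex UMIs came from 1 cell, and without the top cell of each side it was 2.09-fold lower. The transmembrane chain Col23a1 was 3.77-fold lower than in PDGFRa-GFP and 17-fold lower than in hGFAP-GFP cortex, and Lama2 was 2.47-fold lower (interval 0.968 to 6.81) and 13.4-fold lower. Lamb2, a beta chain of synapses and vessels, was lower by 2.19- and 4.95-fold. Col14a1 and Col27a1 were 3.63- and 2.1-fold lower than in PDGFRa-GFP cortex and Col25a1 2.2-fold (interval 0.886 to 5.76) lower. The intervals of Col25a1 and of Lama2 against PDGFRa-GFP cortex reached past 1. Col4a5 and Col6a2 were 2.82- and 3.3-fold lower than in hGFAP-GFP cortex. The Col6a2 call was lost, at 1.61-fold, without the top cell of each side, which in the cortex held 11 of 18 UMIs. Col2a1 had 1.07 CPM at dpi 35, 0.26 CPM at dpi 25, 1.59 CPM in the PDGFRa-GFP library and 3.34 CPM in the hGFAP-GFP library.

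Between the cortex libraries, PDGFRa-GFP at P1 to P3 and hGFAP-GFP at P5 to P6, reporter and age change together. Of 35 genes compared, 5 were at least 2-fold higher in PDGFRa-GFP, against 4.85% of all 13555 genes, and 11 were lower, against 12.7%. The median log2 ratio was -0.18, beside 0.04 over all genes. Type IX chains were among the higher ones: Col9a3 had 89.8 CPM in PDGFRa-GFP and 27.6 CPM in hGFAP-GFP, 3.25-fold higher (interval 2.67 to 3.98), and Col9a2 15.7 and 5 CPM, 3.13-fold higher (interval 1.96 to 5.23). Col9a1 went the other way, 2.77-fold lower. Col8a2 and Col27a1 were 2.97- and 2.1-fold higher, of which Col8a2 lay mostly in the choroid plexus-like cells and turned to a log2 ratio of -0.26 with cells thinned to 1000 UMIs. The fifth, Col11a2, had 17.4 and 4.53 CPM, 3.84-fold higher (interval 2.37 to 6.57), but without the cell with 105 of its 142 UMIs (and the top cell of the hGFAP-GFP library) the ratio was 1.12. Lama2 had 1.71 CPM in PDGFRa-GFP and 9.29 CPM in hGFAP-GFP, 5.42-fold lower (interval 2.88 to 10.8). Col12a1 was 5.28-fold lower (interval 2.8 to 10.6), Col23a1 4.5-fold lower (interval 2.44 to 8.67) and Col4a5 3.06-fold lower (interval 1.86 to 5.1). Col6a1, Col2a1, Lamb2 and Lama4 were 2.92-, 2.1-, 2.26- and 2.03-fold lower. Col1a1 and Col6a2 were 2.47- and 2.19-fold lower, and neither stayed past the limit without the top cells (1.54 and 0.878). Leaving out top cells instead brought Col3a1 (4.61-fold) and Col8a1 (at least 7.86-fold) past it as higher in PDGFRa-GFP, and Col6a6 (2.51-fold) as lower. For Col8a1, 16 of the 18 hGFAP-GFP UMIs came from 1 cell, and the rest was set to the floor of 3 UMIs. Col11a1 differed by less than the limit, with 38.1 and 46.7 CPM (a ratio of 0.815, interval 0.68 to 0.98).

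In the PDGFRa-GFP cortex the level by class set Col9a3 apart. It had 1050.3 CPM in 38 oligodendrocyte-like cells, 573 CPM in 67 choroid plexus-like cells, 86.8 CPM in 918 OPC-like cells and 43.6 CPM in 1039 neuronal-like cells. Thinned to 1000 UMIs, a Col9a3 UMI was found in 68.6% (24 of 35 cells, interval 50.7 to 83.1) of the oligodendrocyte-like, 38.5% of the choroid plexus-like, 7.54% of the OPC-like and 3.75% of the neuronal-like cells; unthinned the shares were 92.1%, 67.2%, 15.4% and 6.45% at median depths of 3617.5, 4630.0, 2025 and 1471 UMIs. Choroid plexus markers summed to 10124 CPM over the whole library. The oligodendrocyte-like cells were highest by level and by share. OPC-like cells had 70.2 CPM of Col11a1, with a thinned share of 6.75% (51 of 756 cells, interval 5.06 to 8.77), and neuronal-like cells 26.1 CPM and 1.93%. Their other genes above 10 CPM included Col11a2 at 57.9 CPM, 105 of its 122 UMIs from the single cell described above, Col9a2 at 28.9, Col16a1 at 24.2, Lamc1 at 23.3 and Col5a3 at 14.2 CPM.

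The choroid plexus-like cluster held 26.7% of the collagen and laminin UMIs of that library with 3.93% of all its UMIs. It had 414 CPM of Col1a2, 174 of Col3a1, 149 of Col8a1, 143 of Col8a2 and 96.5 of Col4a1. The 210 UMIs of Col1a1, Col1a2 and Col3a1 lay in 23 of its 67 cells, and 9 cells had all 3 genes. Each of these 9 also had at least 3 mural or fibroblast markers, and in the other 58 cells Col1a2 was at 106 CPM and Col3a1 at 3.41 CPM. In the hGFAP-GFP library the fibrillar chains of the OPC-like cluster (57 cells) came from 1 cell, which held 77 of the 78 UMIs and 11 mural or fibroblast markers. Col1a2 was at 126 CPM with it and at 3.58 CPM in the other 56 cells. The astrocyte-like cells were unlike this: their 26 Col1a2 UMIs (49.2 CPM) lay in 21 of 115 cells with at most 2 in a cell, and no cell had all 3 chains. The thinned share was 9.57% (11 of 115 cells, interval 4.87 to 16.5), against 0% (0 of 201 cells, interval 0 to 1.82) in neuronal-like cells, with unthinned shares of 18.3% and 0.498% at median depths of 3872 and 3001. The astrocyte-like cells also had Col9a1 (35.9 CPM), Lamb2 (28.4), Col4a5 (26.5) and Col23a1 (24.6), and the oligodendrocyte-like cells Col9a3 (123) and Col11a1 (97.7). The radial glia-like cells had Lama2 at 32.4 CPM. In the neuronal-like cells of this library Col11a1 was at 56.3 CPM, and in the OPC-like cells at 58.1 CPM on 17 UMIs.

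C1 values are TPM, which corrects for transcript length, so levels of different genes can be compared within a set. The 4 sets have no named animals and were read as means over cells with SD; no test was made. A gene was compared where its mean reached 1 TPM in either set, and log2 ratios are of mean TPM + 1. A few cells with 3 or more endothelial, mural or fibroblast markers at 10 TPM carried much of the signal in PDGFRa-GFP mice: 3 of 53 P6 cells held 58.7% of the collagen and laminin TPM, and 1 of 60 P3 cells held 64.1%. In hGFAP-GFP mice 2 of 61 cells at P4 to P6 held 5.28%, and 4 of 49 cells at P3 held 2.02%. The median cell had 74.0 TPM of all genes together in PDGFRa-GFP P6, 4.18 in P3, 9.67 in hGFAP-GFP P4 to P6 and 72.9 in P3.

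In PDGFRa-GFP P6 the highest mean was Col3a1 at 46.6 ± 242 TPM (SD over 53 cells), but only 2 cells reached 10 TPM, both of them cells with vascular markers, and its mean without these was 0.245 TPM. Col1a2 at 31.3 ± 156 TPM and Col1a1 at 18.1 ± 91.3 TPM had means of 0.677 and 0.478 TPM without them. Lamc1 had 40.7 ± 106 TPM with 11 cells at 10 TPM or more, Col9a3 35.8 ± 150.1 TPM with 11 and Col11a1 19.6 ± 69.5 TPM with 11, and 10 of the Col9a3 cells and 10 of the Col11a1 cells had OPC markers, as had 43 of all 53 P6 cells. At P3, where 21 of 60 cells had OPC markers, 4 of the 7 Col9a3 cells and 2 of the 6 Col11a1 cells had them. Col26a1 had 21.7 ± 57.3 TPM with 11 cells and Lama2 13.4 ± 93.8 TPM with 2, and without the vascular-marker cells their means were 12.7 and 0.00963 TPM. At P3 the highest means were Col9a3 at 17.5 ± 73.8 TPM (SD over 60 cells; 7 cells), Col1a2 at 16.7 ± 128 TPM (1 cell), Col1a1 at 16.2 ± 126 TPM, Col11a1 at 12.4 ± 47.5 TPM (6 cells) and Col4a1 at 11.8 ± 72.5 TPM (3 cells). Lower still were Col6a3 at 9.17 ± 71 TPM, Lamc1 at 6.48 ± 33.9 TPM and Col18a1 at 6.16 ± 36.1 TPM. Without the vascular-marker cell, Col1a2 had a P3 mean of 0.0837 TPM and Col4a1 of 2.8 TPM. Of 34 genes compared, 19 were at least 2-fold higher at P6 than at P3, against 33.9% of all 15737 genes, and 3 were lower, against 20.5%; the median log2 ratio was 1.27, beside 0.32 over all genes. The mix of cells differed between these sets: cells with 3 or more OPC markers were 43 of 53 at P6 and 21 of 60 at P3, and cells with 3 or more neuronal markers 16 and 44, and the part of this in the ratios was not tested. Without the vascular-marker cells 10 of 14 compared genes were higher, against 33.5% of 15493 genes, and 4 were lower, against 21.5%. The largest ratios on the log2 scale were 3.75 for Col3a1, 2.93 for Col9a1, 2.74 for Col6a2, 2.67 for Col4a3bp, 2.55 for Col26a1 and 2.48 for Lamc1. Of these Lamc1 was in 11 cells at P6 and 5 at P3, while Col3a1, Col6a2 and Col9a1 were not compared without the vascular-marker cells, since their means were then under 1 TPM. Col6a2 was at 0 TPM in both sets without them, and Col9a1 turned in direction, to means of 0.0108 TPM at P6 and 0.083 TPM at P3.

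In hGFAP-GFP P4 to P6 the highest means were Col9a3 at 71.8 ± 336 TPM (SD over 61 cells; 7 cells at 10 TPM), Col11a1 at 16.3 ± 72.1 TPM (7 cells), Lama2 at 12.3 ± 48.8 TPM (5), Col2a1 at 10 ± 78.4 TPM, all from 1 cell, Lama1 at 7.8 ± 58.5 TPM and Col19a1 at 6.58 ± 50.8 TPM. At P3 they were Lamc1 at 24.5 ± 100.1 TPM (SD over 49 cells; 6 cells), Col23a1 at 14.9 ± 95.5 TPM, Lamb2 at 11.5 ± 35.3 TPM, Col11a1 at 9.01 ± 25.8 TPM (7 cells), Col1a2 at 8.61 ± 36.4 TPM (4 cells, none with vascular markers), Lama2 at 6.9 ± 23.4 TPM, Col4a5 at 6.42 ± 24.7 TPM and Col2a1 at 5.85 ± 34.2 TPM. The SD exceeded the mean for each of these genes in its set. Of 26 genes compared, 6 were at least 2-fold higher at P4 to P6 than at P3, against 25.7% of all 12564 genes, and 13 were lower, against 26.1%; the median log2 ratio was -0.89, beside 0.02 over all genes. Here too the mix of cells differed: cells with 3 or more astrocyte markers were 25 of 61 at P4 to P6 and 37 of 49 at P3, and cells with 3 or more neuronal markers 34 and 7, and their part in the ratios was not tested. The higher ones were led by Col9a3 (3.5; 7 cells at P4 to P6 and 2 at P3), Lama1 (3.12) and Col19a1 (2.92), followed by Col28a1 (1.32), Col4a2 (1.17) and Col12a1 (1.15). One cell held 98.8% of the Col19a1 TPM at P4 to P6, 95.9% of that of Lama1 and 93.8% of that of Col12a1. For Col4a2 it was 99.4%, in a cell with vascular markers, and without the vascular-marker cells the log2 ratio turned to -1.13. The lower ones were led by Col1a2 (-3.22), Col4a5 (-2.61), Lamc1 (-2.42) and Col5a1 (-2.32). In that order they reached 10 TPM in 4, 5, 6 and 1 cells at P3 and in 0, 0, 3 and 1 at P4 to P6. With the mean taken over log values, none of the hGFAP-GFP genes and 2 of the PDGFRa-GFP genes passed the limit.

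**Figure D5:**
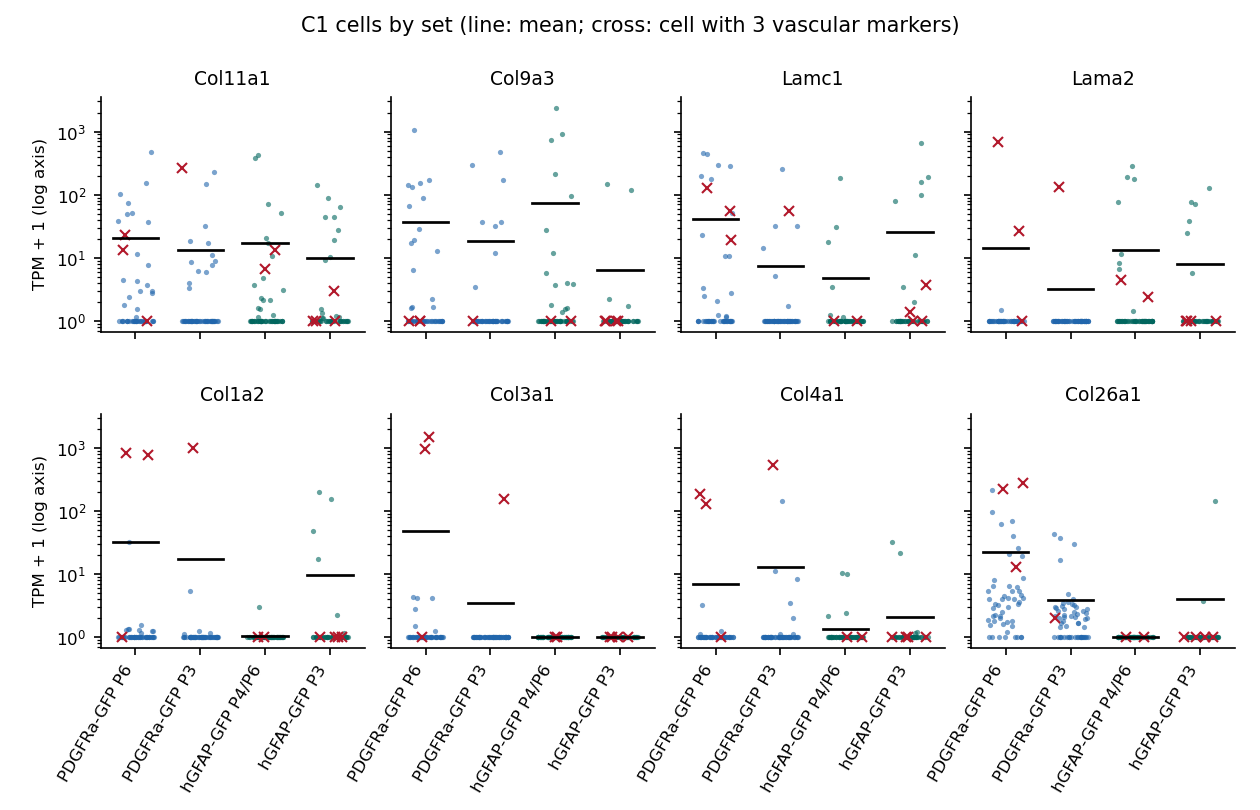
TPM + 1 (log axis) of 8 genes in each C1 cell of the 4 sets, with a line at the mean and a cross for each cell with 3 or more vascular markers. Col9a3 and Col11a1 are high in several cells without those markers, while Col3a1 and most of Col1a2 in PDGFRa-GFP mice are carried by crosses.

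The pooled list of open chromatin in PDGFRa-GFP cells held 93170 summits in 76321 intervals, read as mm10. Of 55 gene spans of the set with coordinates, 47 (85.5%) overlapped an interval, against 15104 of 21887 protein-coding spans (69.0%). The spans are long (median 113865 bases against 17169), and per 100 kb the median was 2.82 intervals against 4.16. At the windows around the start, 14 of 40 (35.0%) overlapped an interval, against 43.1% of 27025 windows. The highest fold over background given by the authors for these windows was 11.1, at Col11a1, in the window whose sequence before the gene is printed above. Next came Col5a1 at 8.59 and the shared interval of Col4a1 and Col4a2 at 6.07. Col4a4 and Col25a1 were at 5.56, Col16a1 at 5.06, Col18a1 and Lama5 at 4.55 and Col19a1, Col27a1, Col6a2, Col23a1 and Col11a2 at 4.04. Of the genes higher in OPC-marker than in vascular-like clusters at dpi 35, 8 had a window, and an interval lay in 4 of these (Col11a1, Col11a2, Col16a1 and Col19a1) and not in those of Col9a1, Col9a2, Col20a1 and Col24a1. Of the genes lower there, 18 had a window and 7 of these held an interval (Col18a1, Col27a1, Col4a1, Col4a2, Col5a1, Col6a2 and Lama5), while those of Col1a2, Col3a1, Col6a3, Col8a1, Col15a1 and Lamb1 were among the 11 with none. At dpi 25, 3 of the higher genes had a window and all 3 held an interval (Col11a1, Col16a1 and Col19a1). Of the genes lower at dpi 25, 12 had a window and 4 of these held one. The spans of Col1a2, Col3a1, Col5a2, Col6a1, Col4a5, Col4a6 and Col10a1 held none at all. Since stages were pooled, they cannot be compared.

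Genes that make, cross-link, bind or cut collagens and laminins were followed as a list of 57. In the dpi 25 tumour over the PDGFRa-GFP cortex, 22 of 46 compared were higher and 1 lower. Fibronectin (Fn1), a matrix glycoprotein, had 184 CPM in the tumour and 2.08 CPM in the cortex, 88.6-fold higher, the collagen receptor chain Itga1 was 39-fold and the protease inhibitor Timp1 28.7-fold higher, and the cross-linking enzyme Loxl1 was 2.47-fold lower. Over the hGFAP-GFP cortex 25 of 48 were higher and 7 lower, led by the same Fn1, Timp1 and Itga1 (43-, 33.5- and 28.1-fold), and by the prolyl hydroxylase subunit P4ha3 (21.3-fold), Loxl1 (8.94-fold) and the laminin receptor chain Itgb4 (5.11-fold) among the lower. The list ratios of the dpi 25 tumour over cortex included its vascular-like cells and were not retaken without them. Between the cortex libraries 6 of 40 were higher and 10 lower in PDGFRa-GFP. Against vascular-like cells, OPC-marker clusters were lower for 32 of 46 list genes and higher for 6 at dpi 35, and lower for 30 of 43 and higher for 4 at dpi 25. All 6 basement membrane and matrix partners (Nid1, Nid2, Hspg2, Agrn, Fn1 and Sparc) were lower in both. Nidogen 1 (Nid1), which links laminin to type IV collagen, had 1.15 CPM in OPC-marker and 297 CPM in vascular-like clusters at dpi 35, 258-fold lower, and the collagen chaperone Serpinh1 was 171-fold lower. The higher ones were led by the membrane protease Mmp16 (148 and 6.14 CPM, 24.1-fold), the collagen receptor Ddr1 (15-fold) and Timp4 (15-fold) at dpi 35, and by the same 3 genes at dpi 25 (37.2-, 11- and 7.83-fold). Mural or fibroblast-like over endothelial-like cells had 22 of 44 list genes higher and 5 lower at dpi 35, and 15 of 28 higher and 5 lower at dpi 25; all 5 compared processing and cross-linking genes were higher at dpi 35 and all 3 at dpi 25. In C1 cells 22 of 43 were higher and 4 lower at P6 over P3 in PDGFRa-GFP, and 6 of 40 higher and 18 lower at P4 to P6 over P3 in hGFAP-GFP, where Sparc, a collagen-binding matrix protein, had 35.7 and 407 mean TPM. The percentages over all genes given above for each comparison are the background of these counts too.

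The 13 genes not named by the rule for named genes (such as Col10a1, Col17a1, Col22a1, Col24a1, Col4a4, Col6a5 and Lama3) were at most at 1.56 CPM in the dpi 35, 1.3 CPM in the dpi 25, 1.35 CPM in the PDGFRa-GFP and 2.38 CPM in the hGFAP-GFP library. Col10a1, the chain of hypertrophic cartilage, had no UMI in the dpi 35 library. The named genes not yet described were also low over whole libraries. Col7a1 had 4.63 CPM at dpi 35, 3.55 CPM at dpi 25, 1.84 CPM in the PDGFRa-GFP library and 2.14 CPM in the hGFAP-GFP library, and in the tumours it was 37.3-fold lower in OPC-marker than in vascular-like clusters at dpi 35 and 43.1-fold lower at dpi 25. Col13a1, a transmembrane chain, had 0.703 CPM at dpi 35, 1.3 CPM at dpi 25, 1.47 CPM in the PDGFRa-GFP library and 0.953 CPM in the hGFAP-GFP library. Lama5, the other alpha chain of vascular basement membranes, had 3.91 CPM at dpi 35, 1.99 CPM at dpi 25, 1.96 CPM in the PDGFRa-GFP library and 2.62 CPM in the hGFAP-GFP library, with 26.4 CPM in mural or fibroblast-like and 40.4 CPM in endothelial-like cells of dpi 35. Lama1, the alpha chain of early embryos, had 0.703 CPM at dpi 35, 0.78 CPM at dpi 25, 0.735 CPM in the PDGFRa-GFP library and 1.19 CPM in the hGFAP-GFP library.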

How the data were processed

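Per the submitters' processing notes, STAR, Cell Ranger, RSEM, Bowtie2, HOMER, CASAVA and MACS2 2.12 were used with the builds mm10 and rn5; the counter, cell filters and annotation are not given in the sources used here. The 10x table as deposited by the authors holds raw UMI counts per gene and cell. The Drop-seq tables hold a signal that the authors deposited as UMIs scaled to 10000 per cell; whole UMIs were recovered by dividing by the value of 1 UMI, and in every cell at least 99% of values were whole within 0.1. The C1 tables hold values that the authors deposited as TPM. The pooled list holds, as deposited by the authors, a fold over background and a −log10 q value per summit, on mouse chromosomes read as mm10.

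From these, cells with at least 200 genes were clustered with scanpy 1.11.5 and leidenalg 0.10.2 (igraph 0.11.9) on 2000 variable genes without the collagen and laminin genes, 30 principal components, 15 neighbours, resolution 1 and seed 20. A cluster took the name of a type with at least 3 markers among its 50 leading genes. Scrublet, run in scanpy, marked 124 cells at dpi 35, 0 at dpi 25, 5 in PDGFRa-GFP and 4 in hGFAP-GFP; cells were kept, and with so few marks in the Drop-seq libraries it cannot be relied on there. No Drop-seq barcode was shared between libraries. UMIs were summed by library and class; numpy 2.4.6, scipy 1.17.1 and pandas 2.3.3 gave ratios and intervals, and matplotlib 3.10.9 drew the figures. The ratio step was tested on simulated data. A count of 0 was set to a floor of 3 UMIs for bounds. In ratios without top cells, any count under 3 was set to that floor.

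Named genes were the 8 with the highest level per library, per C1 set and per class or group of at least 50 cells, unnamed clusters apart. Added to these were the 6 largest and 6 smallest ratios per comparison with at least 20 UMIs and 5 CPM, plus up to 3 partner genes each way. A few genes outside this rule were named after their values were seen. The genes, lists and comparisons were chosen with earlier results of these data known. The labels disagree in places: the strain entry of the PDGFRa-GFP C1 cells names hGFAP-gfp, and stage or genotype entries of the open chromatin samples differ from their titles, which were followed.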

Additional observations from a re-analysis of the deposited data

How the results depend on the processing

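No paired analysis was possible because the shared numbers in the labels are cell numbers and no result comes from a test over replicate samples. Of 111 counts of genes past the fold limit recomputed under other settings, 87 stayed within 1.5 times, 19 moved and 5 turned in direction. In the dpi 25 tumour over PDGFRa-GFP cortex the count of 25 became 31 with no UMI minimum (15 higher, 16 lower), 15 at a 4-fold limit and 23 without vascular-like clusters (8 higher, 15 lower). Over hGFAP-GFP cortex the count of 22 became 33 with no minimum (15 higher, 18 lower), 14 at 4-fold, 14 with cells thinned to 1000 UMIs and 19 without vascular-like clusters (6 higher, 13 lower). Between the cortex libraries the count of 16 became 10 with a minimum of 50 UMIs, 3 at 4-fold and 4 thinned (3 higher, 1 lower). Thinning left 11 of 17 for glial-like over vascular-like cells at dpi 25 and 13 of 38 at dpi 35, 14 of 37 for OPC-marker clusters at dpi 35, and 8 of 13 and 4 of 21 for mural or fibroblast-like over endothelial-like cells at dpi 25 and dpi 35; fewer genes reach the UMI minimum when thinned. With no minimum the OPC-marker count at dpi 25 was 34 in place of 22 and the mural or fibroblast-like count 24 in place of 13. In C1 cells the PDGFRa-GFP count of 22 was 2 over means of log values, 11 with a minimum mean of 5 TPM, 14 at 4-fold and 14 without vascular-marker cells, and the hGFAP-GFP count of 19 was 0, 9 and 9 under the first 3 of these.

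The summed level of the genes moved with the clustering. At Leiden resolution 0.5 it was 664 CPM (821 at resolution 1) in glial-like cells at dpi 35, 607 (892) at dpi 25, 413 (454) in PDGFRa-GFP and 421 (482) in hGFAP-GFP cortex, and 366 (341) and 427 (683) in OPC-marker clusters of PDGFRa-GFP and hGFAP-GFP cortex. At resolution 2 it was 764 CPM in glial-like cells at dpi 35 and 406 and 555 CPM in OPC-marker clusters of PDGFRa-GFP and hGFAP-GFP cortex. Of 572 recomputed log2 ratios of named genes, 474 stayed within their counting interval (C1: past the fold limit in the same direction), 94 moved in size and 4 turned in direction: Col8a2 in PDGFRa-GFP over hGFAP-GFP cortex thinned (-0.26), Col9a1 in PDGFRa-GFP C1 cells without vascular-marker cells (-0.0995), and Col4a2 in hGFAP-GFP C1 cells over means of log values (-0.041) and without vascular-marker cells (-1.13). A further 7 directions were left unset by a count of 0 after thinning, among them Col9a3 and Col19a1 in OPC-marker over vascular-like clusters at dpi 25. The cause was not tested. Of 291 shares of cells 210 left their interval, 206 of them with thinning, and 47 gene spans with open chromatin became 48 with 2000 bases added. One library per group and counts under 20 in small clusters limit all of these values.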

Other observations

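Some collagen genes were found in cells outside the glial and vascular classes. In the ependymal-like cluster of the dpi 35 tumour (99 cells), Col8a2, a short chain, was at 81.5 CPM with 65 UMIs in 41 cells. Lamb2 was at 76.5 CPM, Col27a1 at 37.6 CPM and Col5a2 at 36.4 CPM in the same cells. In the microglia or macrophage-like cells of that tumour Col27a1 was at 35 CPM, with 348 UMIs in 277 of 1250 cells. An unnamed cluster of 338 cells led by Ms4a7 and Pf4 had Col14a1 at 30.4 CPM. In the hGFAP-GFP cortex an unnamed cluster of 45 cells led by Entpd2, Naaa and Rgs5 had Col4a5 at 111 CPM on 19 UMIs. These values were chosen after they were seen.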
